A study of Mus musculus with 12 samples.

Results

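The genes described here are the nuclear subunits of respiratory complexes II to V together with cytochrome c, 40 genes listed by name and by complex: 4 of complex II, 10 of complex III with cytochrome c, 13 of complex IV and 13 of complex V. They were found by symbol among the 27179 genes of a heart count table, whatever their counts, and all 40 had a row. Of these, 39 passed the filter on low counts and entered the tests, which covered 13626 genes. The exception was Uqcr11, a small subunit of complex III, which had 1 count in all 12 libraries together and has no fold change.

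Complex II oxidises succinate and passes the electrons to ubiquinone, complex III hands them to cytochrome c, and complex IV gives them to oxygen. Complexes III and IV pump protons as they do so, and complex V, the ATP synthase, uses the proton gradient to make ATP. The heart draws most of its ATP from this chain, and several subunits of complex IV come in a heart and muscle isoform and a more widely expressed one.

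RNA came from frozen mouse hearts, with 3 libraries in each of 4 groups; each library is taken as 1 heart, since the labels name no pooling. Dams breathed filtered air or diesel exhaust over embryonic days E0.5 to E17.5. All offspring were then raised in filtered air, underwent echocardiography at 11 weeks and surgery at 12 weeks, either sham or transverse aortic constriction (TAC) with a 27-gauge needle, and gave their hearts at 15 weeks. TAC narrows the aorta and loads the left ventricle with pressure. The 4 groups are thus filtered-air sham, filtered-air TAC, diesel-exhaust sham and diesel-exhaust TAC. The labels give neither strain, sex nor litter, so whether hearts of a group shared a mother is unknown, and the p-values measure only the spread between these samples. The title sets out the question of how in utero exposure relates to the transcriptional response to TAC.

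Promoter sequences are shown for 3 subunits that fell after TAC in the results given further on. They were chosen to show some of the motifs searched for and a promoter with none. They come from RefSeq (GRCm38.p6), which gave 34 promoters for 31 of the 40 genes, each 300 bases long from 250 before to 50 after the transcript start. In all, 4 motifs of factors known to act on respiratory genes were sought on both strands, letter for letter: the estrogen-related receptor element TCAAGGTCA, the nuclear respiratory factor 1 core CGCATGCG, the GABP site ACCGGAAGT and the YY1 site AAGATGGCG. Capitals mark each match, and sequences run 5′ to 3′ on the gene's strand.
Uqcrc1 (chr9:108936398-108936697, plus strand): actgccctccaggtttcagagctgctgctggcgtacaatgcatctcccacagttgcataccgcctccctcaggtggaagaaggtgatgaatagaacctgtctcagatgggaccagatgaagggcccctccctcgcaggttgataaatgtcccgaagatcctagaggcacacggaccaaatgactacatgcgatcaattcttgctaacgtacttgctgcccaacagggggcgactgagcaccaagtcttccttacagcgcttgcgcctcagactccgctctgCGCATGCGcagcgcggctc
Atp5g3 (chr2:73911277-73911576, minus strand): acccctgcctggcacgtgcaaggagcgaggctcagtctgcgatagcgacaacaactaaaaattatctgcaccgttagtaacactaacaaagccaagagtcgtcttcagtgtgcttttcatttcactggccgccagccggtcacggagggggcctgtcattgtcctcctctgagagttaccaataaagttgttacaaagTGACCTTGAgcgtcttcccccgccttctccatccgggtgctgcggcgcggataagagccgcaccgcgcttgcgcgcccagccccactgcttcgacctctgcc
Cox7a1 (chr7:30183921-30184220, plus strand): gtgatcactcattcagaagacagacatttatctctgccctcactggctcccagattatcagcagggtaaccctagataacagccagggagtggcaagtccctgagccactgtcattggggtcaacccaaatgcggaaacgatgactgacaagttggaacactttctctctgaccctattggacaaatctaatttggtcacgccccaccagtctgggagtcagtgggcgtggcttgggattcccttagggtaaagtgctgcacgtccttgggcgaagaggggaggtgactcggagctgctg

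The Uqcrc1 promoter holds the nuclear respiratory factor 1 core 31 bases after the start, and the Atp5g3 promoter holds the estrogen-related receptor element, on the opposite strand, 52 bases before it. The Atp5g3 window lies wholly inside the gene's span (chr2:73908447-73912464). Its transcript start is therefore internal to the gene and not at the gene's outermost annotated start. None of the 4 motifs is in the Cox7a1 window, the promoter of the subunit gene with the largest change. The counts that follow are of genes with a match in any of their promoters, whereas the percentages are of single promoters. Across the 31 genes, the nuclear respiratory factor 1 core was in 7 (Atp5j, Atp5k, Atp5l, Cox6a1, Cycs, Uqcr11 and Uqcrc1), against 1.87% of all 32851 promoters. The estrogen-related receptor element was in 2 (Atp5g3 and Sdhd), against 0.423% of all promoters. The YY1 site was in 1 (Atp5j, in the same promoter as a nuclear respiratory factor 1 core but not overlapping it), against 1.4%, and the GABP site in 0, against 1.1%. Of the 7 genes with the nuclear respiratory factor 1 core, Uqcrc1 is among the genes that fell after TAC, beside 12 of all 39 tested. Uqcr11 could not be tested. In the average over exposures Atp5j, Atp5k, Atp5l and Cycs lay below 0 without passing, and Cox6a1 had a log2 change of 0.01 ± 0.12 (SE). Whether the change differed between genes with and without the core was not tested. These matches describe letters in the windows and say nothing of binding.

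Levels are given as counts per 1000000 counts (CPM) after scaling the libraries to each other, and between genes only per kilobase of transcript. In the filtered-air sham hearts the highest level per kilobase among the 40 genes was that of Atp5b, the catalytic beta subunit of ATP synthase, at 1536 ± 59.7 CPM per kilobase (SD, n = 3). Cox4i1, a subunit of complex IV, followed at 1166 ± 81.5 CPM per kilobase, and Cox7a1, a heart and muscle isoform of complex IV, at 1150 ± 119 CPM per kilobase. Cox4i1 and Cox7a1 did not differ beyond their spread, nor did the next in order, Atp5e at 1112 ± 166 and Atp5a1 at 1035 ± 67.3 CPM per kilobase. At the low end stood Sdhd, a membrane anchor of complex II, at 8.03 ± 2.57 CPM per kilobase, below Cox7a2 at 24.6 ± 0.51, Cycs (somatic cytochrome c) at 24.9 ± 0.845 and Atp5l (ATP synthase subunit g) at 27.0 ± 4.59 CPM per kilobase, the last 3 within their spread of each other. Subunits that occur in equal numbers in 1 complex thus gave very different read densities: Sdhb was at 483 ± 65.6 and Sdhd at 8.03 ± 2.57 CPM per kilobase. Transcripts of 4 of the 40 genes share over 20% of their 50-base stretches with other genes, which makes their counts uncertain: Atp5o with 41.6%, Cycs with 26.1%, Uqcrb with 25.5% and Cox7c with 22.1%. For Atp5o these other genes include another record under the same name. For 15 of the 40 genes no 50-base stretch was shared.

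Library totals ran from 5534685 to 13265816 counts, so 3 counts correspond to 0.217 to 0.501 CPM, and every tested subunit gene had at least 38 counts in each library. The 40 genes took 1.34 to 2.04% of a library's counts and the mitochondrially encoded genes 18.3 to 32.4%. Depth, mitochondrial share and the share of the 40 genes were all at their extreme in 1 library, diesel-exhaust sham 2, which had 5534685 counts, 18.3% mitochondrially encoded and 2.04% from these genes. Defining markers of ventricular cardiomyocytes such as Myh6 and Tnnt2 were present, and the atrial marker Bmp10 had no count in any library, as had the brown fat marker Ucp1. The other 5 of 6 atrial markers passed the filter, and that list summed to 13.7 to 69.4 CPM.

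Another pattern crossed the groups. In the within-group deviations of all other tested genes, the first component held 27.2% of that variation. On it 1 library of every group, its replicate 1, lay above 0 (16.8 to 43.0) and the remaining 8 below (-29.6 to -3.91). Deviations within a group sum to 0, so every group had to lie on both sides of 0. The gaps were uneven: diesel-exhaust sham 2 and 3 lay at -29.6 and -3.91, and diesel-exhaust TAC 1 and 3 at 16.8 and -6.91. The labels say that 4 samples shared a sequencing run but not which, so what sets these 4 libraries apart was not tested. Among the 39 tested subunit genes, 7 had levels in the 4 libraries that did not overlap those in the other 8, against 3.73% of all genes. Sdhd, which anchors complex II in the membrane, was at 13.5 to 19.2 CPM in the 4 libraries and 5.48 to 9.68 CPM in the other 8, a ratio of 2.45 within groups. Cox6b1, a subunit on the outer face of complex IV, was at 617 to 726 CPM against 201 to 404 CPM. Uqcr10, a small subunit of complex III, was at 324 to 370 CPM against 99.1 to 203 CPM. Atp5o (543 to 714 CPM against 256 to 534 CPM), Atp5e and Cox8a were likewise higher in the 4 libraries. Cox6c was lower, with 82.6 to 99.4 CPM against 120 to 206 CPM. Because each group holds 1 of these libraries, they enter each side of every comparison equally, but they widen the spread of these 7 genes. Results are therefore also given with a term for the 4 libraries in the model, and without them.

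**Figure D1:**
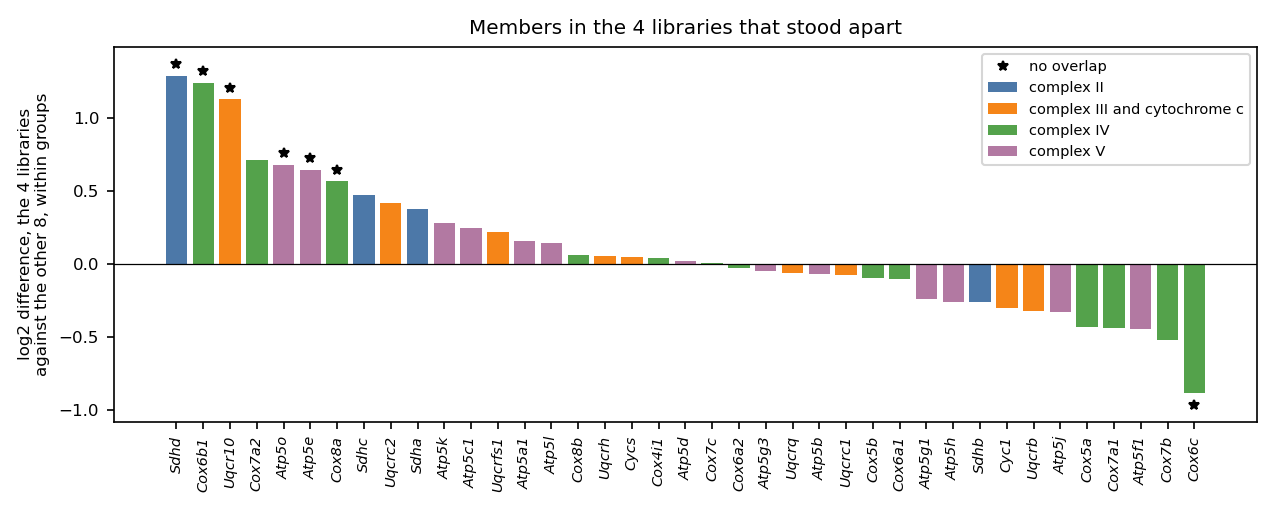
Log2 difference of each of the 39 tested subunit genes between the 4 libraries that stood apart and the other 8, averaged within groups (y axis), with genes on the x axis, bars coloured by complex and stars where the levels did not overlap. Sdhd, Cox6b1 and Uqcr10 have the tallest bars above 0 and Cox6c the lowest bar below it.

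After TAC, most subunits of all 4 complexes read lower than after sham surgery, and none of the 39 passed the test in the upward direction. Averaged over both exposures, 12 of 39 genes fell at an adjusted p under 0.05 (edgeR quasi-likelihood test, Benjamini-Hochberg over 13626 genes): 3 of 4 in complex II, 1 of 9 in complex III with cytochrome c, 3 of 13 in complex IV and 5 of 13 in complex V. That is 30.8% of them, beside 3.93% of all tested genes that fell and 8.03% that passed in either direction. The median log2 change was -0.26 over the 39 genes and 0.00 over all genes, and 37 of 39 lay below 0, against 49.5% of all genes. These 39 genes share the same hearts, so a common sign, here and within each exposure, is not a count of independent results. By complex the median was -0.49 in complex II, -0.25 in complex III with cytochrome c, -0.22 in complex IV and -0.33 in complex V. Of the 39, 2 lay above 0, each by less than its SE: Cox7a2 at 0.08 ± 0.29 and Cox6a1 at 0.01 ± 0.12. Both changed sign among the fits that left out 1 heart.

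Within filtered air alone, 0 of 39 genes passed, beside 0.829% of all genes in either direction and 0.22% in the downward direction. At an unadjusted p under 0.05 there were 4 (Atp5d, Sdha, Cox7a1 and Cox6a2), or 10.3%, beside 11.1% of all genes. With DESeq2, 0 passed as well, beside 239 of all genes. The median log2 change in filtered air was -0.24, and 36 of 39 lay below 0, against 49.5% of all genes. After diesel exhaust, 2 of 39 genes fell, Sdhc and Cox7a1, beside 3.24% of all genes that passed in either direction and 1.49% that fell. DESeq2 called 9 there. The median there was -0.33, and 35 of 39 lay below 0, against 50% of all genes. Groups did not overlap, with every TAC heart below every sham heart, for 10 of 39 genes in filtered air (7.6% of all genes) and for 19 of 39 after diesel exhaust (11.2% of all genes). The filtered-air and diesel-exhaust comparisons share no library, and 32 of 39 genes lay below 0 in both, against 33.5% of all genes. Over the 39 genes, which share the same libraries, the log2 changes in the 2 comparisons correlated with Pearson's r of 0.55 and Spearman's rho of 0.546.

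**Figure D2:**
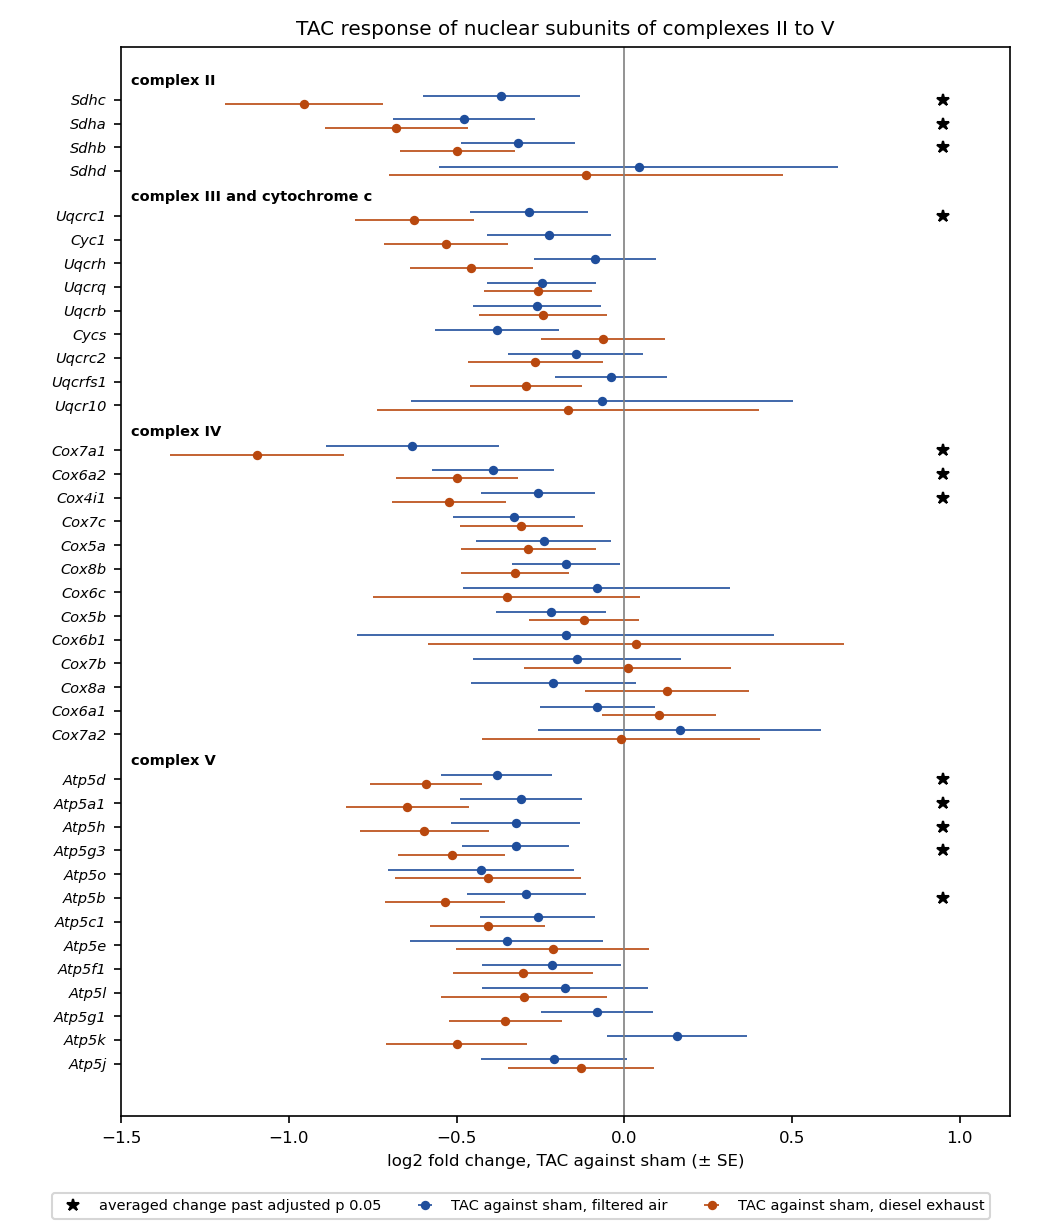
Log2 fold change of TAC against sham (x axis, ± SE derived from the edgeR test statistic) for the 39 tested subunit genes, ordered by complex (y axis), in filtered air (blue) and after diesel exhaust (orange). Stars mark the 12 genes that fell in the average over exposures, and 36 blue and 35 orange points lie left of 0.

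The number of genes that passed moved with single hearts. With a term for the 4 libraries the count was 0 in filtered air (0.749% of all genes fell), 10 after diesel exhaust (2.88%) and 15 in the average (5.75%), the 12 plus Cyc1, Atp5o and Atp5c1. That term came from these same counts, and the share of all genes that fell in the average was 3.93% without it. The added calls are therefore no separate support. Without the 4 libraries, 8 passed in the average, 7 of them among the 12. Fewer of all genes passed there as well. The calls lost there were those of Atp5a1 (adjusted p = 0.0555), Uqcrc1 (0.0792), Sdhb (0.0846), Cox4i1 (0.107) and Atp5b (0.13). Leaving out 1 heart at a time gave 3 to 10 in the average, with 3 when filtered-air TAC 2 or diesel-exhaust TAC 3 was left out, 4 without filtered-air sham 2, 5 without diesel-exhaust TAC 2, 6 without filtered-air sham 3 and 7 without diesel-exhaust sham 2. Cox7a1 and Atp5d passed in all 12 of these fits. Within the 4 libraries alone, 1 TAC heart against 1 sham heart per exposure, 33 of 39 genes were lower after TAC in filtered air (49.3% of all genes) and 32 after diesel exhaust (48.6%). In the other 8 libraries 36 were lower in filtered air (50.4% of all genes) and 37 after diesel exhaust (50.4%). In mean level over the 12 hearts, the genes that passed ran from 66.3 CPM (Atp5d) to 2650 CPM, with a median of 539 CPM, and the 27 that did not ran from 10.5 to 547 CPM, with a median of 223 CPM. None of the 12 shared over 19.9% of its 50-base stretches with other genes.

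Complex II had the largest median change. Sdha, the flavoprotein subunit that oxidises succinate (Entrez 66945, chr13:74322255-74350240, minus strand), read 1509, 1222 and 1266 CPM in the filtered-air sham hearts, 1156, 746 and 968 CPM in the filtered-air TAC hearts, 1649, 936 and 1278 CPM in the diesel-exhaust sham hearts and 888, 846.5 and 678 CPM in the diesel-exhaust TAC hearts. The groups did not overlap in either exposure, although diesel-exhaust sham 2, the library with the fewest counts, lay close to the TAC hearts. Averaged over exposures Sdha fell by a log2 change of -0.58 ± 0.15 (SE), 1.49-fold, with an adjusted p of 0.0192. That call was lost without filtered-air sham 1 (adjusted p = 0.0527), filtered-air TAC 2 (0.0581), diesel-exhaust sham 1 (0.0693) or diesel-exhaust TAC 3 (0.0647).

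Sdhc, an anchor subunit that helps bind ubiquinone and heme (Entrez 66052, chr1:171129157-171150640, minus strand), read 388, 353 and 309 CPM in the filtered-air sham hearts, 361, 204 and 248.5 CPM in the filtered-air TAC hearts, 509, 497 and 319 CPM in the diesel-exhaust sham hearts and 302, 209.8 and 172 CPM in the diesel-exhaust TAC hearts. All 3 diesel-exhaust TAC hearts were below all diesel-exhaust sham hearts, whereas the filtered-air groups overlapped. Its log2 change was -0.37 ± 0.23 in filtered air (adjusted p = 0.616) and -0.95 ± 0.24 after diesel exhaust (adjusted p = 0.029), the latter 1.94-fold lower. In the average it fell by a log2 change of -0.66 ± 0.17 (adjusted p = 0.0172), a call lost without filtered-air TAC 2 (0.0571) or diesel-exhaust TAC 3 (0.0511). The diesel-exhaust call was lost without diesel-exhaust sham 1 (0.119), sham 2 (0.0984), TAC 2 (0.123) or TAC 3 (0.163). It was also lost without the robust option of the fit (0.0509).

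Sdhb, the iron-sulfur subunit that carries electrons from Sdha to ubiquinone (Entrez 67680, chr4:140961271-140979198, plus strand), read 480, 546.5 and 629.5 CPM in the filtered-air sham hearts, 384, 435 and 509.5 CPM in the filtered-air TAC hearts, 524.5, 635 and 594 CPM in the diesel-exhaust sham hearts and 370.5, 445 and 427 CPM in the diesel-exhaust TAC hearts. The diesel-exhaust groups did not overlap, and in filtered air 1 TAC heart lay within the sham range. Sdhb fell in the average by a log2 change of -0.41 ± 0.12 (adjusted p = 0.0399), but passed in only 3 of the 12 fits that left out 1 heart, with adjusted p up to 0.108 without filtered-air sham 3. The other anchor, Sdhd, had the low level and the split between the 4 libraries and the other 8 described earlier, and its log2 change was -0.04 ± 0.42 (adjusted p = 0.976).

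**Figure D3:**
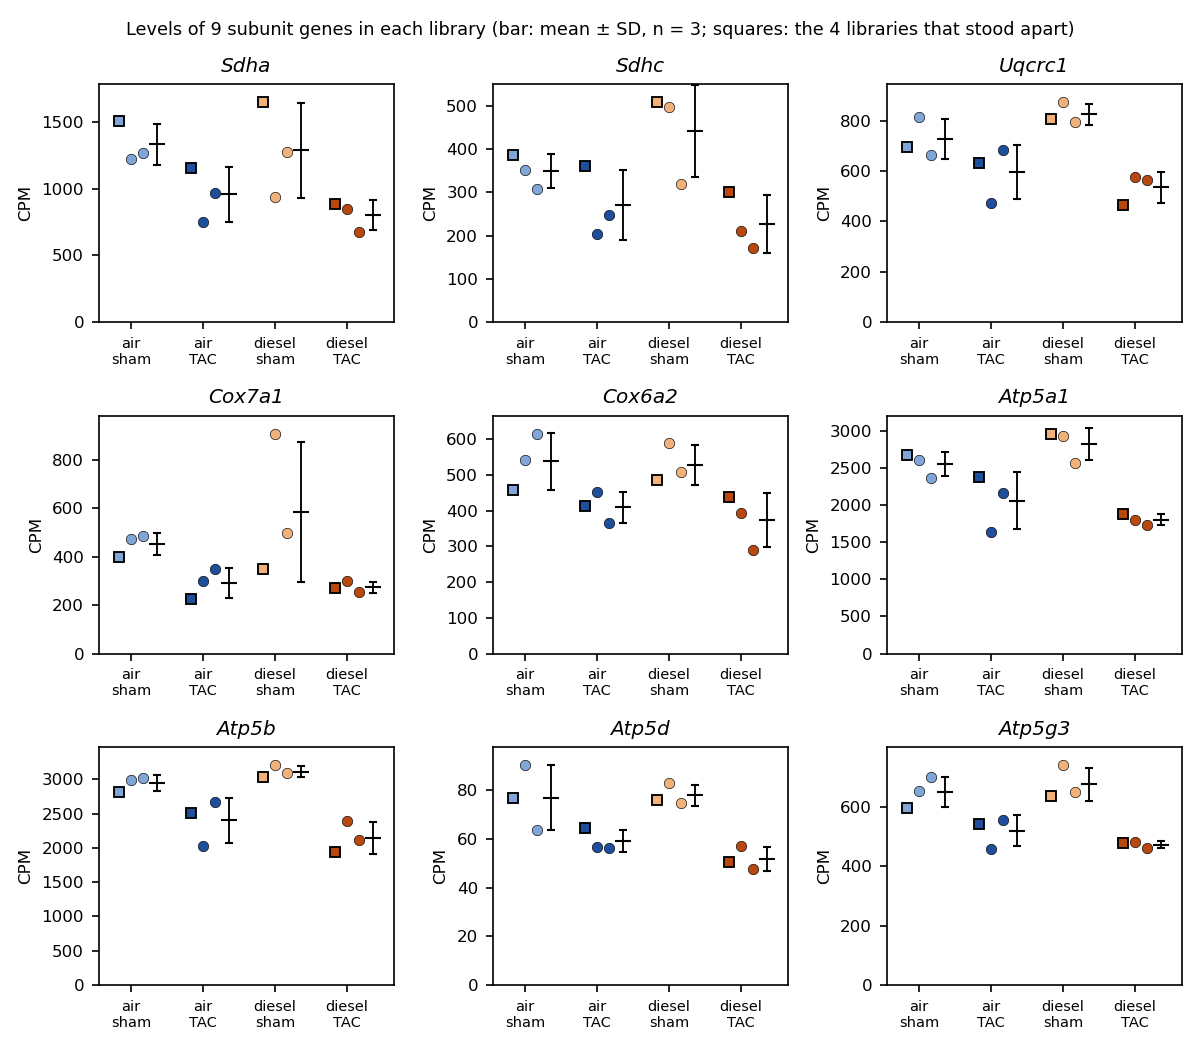
Scaled CPM (y axis, from 0) of 9 subunit genes in each heart, by group (x axis), with squares for the 4 libraries that stood apart and bars for the mean ± SD of 3 hearts. The diesel-exhaust TAC hearts lie below the diesel-exhaust sham hearts in all 9 panels, and diesel-exhaust sham 2 is the highest Cox7a1 value at 909 CPM.

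In complex III with cytochrome c, all 9 tested genes lay below 0 in both exposures, and 1 passed in the average. Uqcrc1, one of the large core subunits on the matrix side (Entrez 22273, chr9:108936648-108949641, plus strand), whose promoter is shown with its nuclear respiratory factor 1 core, read 697, 816 and 664 CPM in the filtered-air sham hearts, 629.8, 474 and 684 CPM in the filtered-air TAC hearts, 808, 873.5 and 793 CPM in the diesel-exhaust sham hearts and 464, 576 and 564 CPM in the diesel-exhaust TAC hearts. After diesel exhaust every TAC heart was below every sham heart, and in filtered air TAC 3 exceeded sham 3. Uqcrc1 fell in the average by a log2 change of -0.46 ± 0.12 (adjusted p = 0.0255), and the call was lost without filtered-air sham 2 (0.0745), filtered-air TAC 2 (0.0697) or diesel-exhaust TAC 1 (0.0626). Its partner core subunit Uqcrc2 had a log2 change of -0.21 ± 0.14 (adjusted p = 0.445).

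Cyc1, the cytochrome c1 subunit that passes electrons to cytochrome c, read 385, 419.6 and 416.5 CPM in the filtered-air sham hearts, 323, 326 and 396 CPM in the filtered-air TAC hearts, 375, 583 and 461.5 CPM in the diesel-exhaust sham hearts and 262, 369 and 351 CPM in the diesel-exhaust TAC hearts. The diesel-exhaust groups did not overlap. Its log2 change was -0.38 ± 0.13 in the average, with an adjusted p of 0.0804, and it is 1 of the 3 genes added when the 4 libraries had a term. Cycs, the mobile carrier itself, read 78.8, 74.6 and 79.4 CPM in the filtered-air sham hearts, 49.7, 61.9 and 67.3 CPM in the filtered-air TAC hearts, 60.8, 39.4 and 61.4 CPM in the diesel-exhaust sham hearts and 57.4, 46.0 and 51.3 CPM in the diesel-exhaust TAC hearts. It differed from the rest of the complex in pattern: both diesel-exhaust groups lay at or below the filtered-air TAC level, and the filtered-air sham hearts stood above all others. Its log2 change was -0.38 ± 0.19 in filtered air and -0.06 ± 0.19 after diesel exhaust, neither past the threshold. Other genes share 26.1% of its 50-base stretches.

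The remaining subunits of complex III did not pass. Uqcrb, which helps hold ubiquinone, read 107.5, 114 and 150.3 CPM in the filtered-air sham hearts, 90.8, 102 and 118 CPM in the filtered-air TAC hearts, 81.6, 96.5 and 130.3 CPM in the diesel-exhaust sham hearts and 76.8, 98.4 and 85.3 CPM in the diesel-exhaust TAC hearts, with overlapping groups. Uqcrfs1, the Rieske iron-sulfur protein, had log2 changes of -0.04 ± 0.17 and -0.29 ± 0.17 in the 2 exposures, and Uqcrh, the hinge protein, -0.09 ± 0.18 and -0.46 ± 0.18. Uqcrq, with log2 changes of -0.25 ± 0.16 and -0.26 ± 0.16, was lower in every TAC heart than in every sham heart within both exposures. Uqcr10, split by the 4 libraries, had SEs of 0.57 and 0.57 around changes of -0.07 and -0.17.

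Complex IV held the largest change of all 39 genes. Cox7a1, the heart and muscle isoform of subunit 7a (Entrez 12865, chr7:30184171-30186030, plus strand), read 399, 471 and 486 CPM in the filtered-air sham hearts, 226, 299 and 350 CPM in the filtered-air TAC hearts, 351, 909 and 497 CPM in the diesel-exhaust sham hearts and 269.8, 298 and 254 CPM in the diesel-exhaust TAC hearts. Every TAC heart was below every sham heart within each exposure, and diesel-exhaust sham 2, at 909 CPM, was far above the next highest, at 497 CPM. Its log2 change was -0.63 ± 0.26 in filtered air (adjusted p = 0.359), -1.10 ± 0.26 after diesel exhaust (adjusted p = 0.0262) and -0.86 ± 0.18 in the average (adjusted p = 0.00672), the last 1.82-fold lower. Without diesel-exhaust sham 2 the diesel-exhaust change was -0.63, with an adjusted p of 0.107, and the average change remained past the threshold. The diesel-exhaust call was also lost without diesel-exhaust TAC 1 (0.109), TAC 2 (0.069) or TAC 3 (0.135), and when only the 2 groups compared were fitted (0.0912). In the average, the adjusted p of Cox7a1 stayed at or under 0.0331 whichever heart was left out.

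Cox6a2, the heart and muscle isoform of subunit 6a (Entrez 12862, chr7:128205435-128206366, minus strand), read 457, 541 and 616 CPM in the filtered-air sham hearts, 414.5, 451.5 and 365 CPM in the filtered-air TAC hearts, 485, 591 and 509 CPM in the diesel-exhaust sham hearts and 438, 393 and 289.5 CPM in the diesel-exhaust TAC hearts. The groups did not overlap in either exposure. It fell in the average by a log2 change of -0.45 ± 0.13 (adjusted p = 0.0355), and passed in 5 of the 12 fits that left out 1 heart, with an adjusted p of up to 0.116 without diesel-exhaust TAC 3. Cox4i1, a subunit through which ATP slows the enzyme (Entrez 12857, chr8:120668225-120674209, plus strand), read 938, 844 and 824 CPM in the filtered-air sham hearts, 770.3, 608 and 800.3 CPM in the filtered-air TAC hearts, 900.1, 1102 and 886 CPM in the diesel-exhaust sham hearts and 676, 679.5 and 656 CPM in the diesel-exhaust TAC hearts. It too had no overlap in either exposure and fell in the average by a log2 change of -0.39 ± 0.12 (adjusted p = 0.047), but passed in only 1 of the 12 fits that left out 1 heart, with an adjusted p of up to 0.116 without filtered-air TAC 2.

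The other 10 genes of complex IV did not pass in any comparison. Cox7c, which sits in the membrane part of the enzyme, read 39.7, 36.7 and 47.5 CPM in the filtered-air sham hearts, 29.6, 37.9 and 31.1 CPM in the filtered-air TAC hearts, 32.9, 34.4 and 31.4 CPM in the diesel-exhaust sham hearts and 30.5, 25.6 and 23.5 CPM in the diesel-exhaust TAC hearts, with no overlap after diesel exhaust. Cox5b, which binds zinc, read 139.6, 156 and 163 CPM in the filtered-air sham hearts, 116, 133 and 146 CPM in the filtered-air TAC hearts, 126, 109.8 and 147 CPM in the diesel-exhaust sham hearts and 122, 125 and 104 CPM in the diesel-exhaust TAC hearts, and its groups overlapped in both exposures. Log2 changes in the average were -0.26 ± 0.14 for Cox5a, -0.22 ± 0.28 for Cox6c, -0.07 ± 0.22 for Cox7b and -0.07 ± 0.44 for Cox6b1. The SEs of Cox6c and Cox6b1, both split by the 4 libraries, exceeded their changes.

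Complex V had 13 of 13 genes below 0 in the average, and 5 fell. They lie in each part of the enzyme: the catalytic head (Atp5a1 and Atp5b), the central stalk (Atp5d), the peripheral stalk (Atp5h) and the membrane ring (Atp5g3). Atp5a1, the alpha subunit, read 2685, 2619 and 2370 CPM in the filtered-air sham hearts, 2390, 1637 and 2170 CPM in the filtered-air TAC hearts, 2970, 2941 and 2576 CPM in the diesel-exhaust sham hearts and 1882, 1802 and 1735 CPM in the diesel-exhaust TAC hearts. Atp5b, the catalytic beta subunit (Entrez 11947, chr10:128083307-128090388, plus strand), read 2812, 2992 and 3025 CPM in the filtered-air sham hearts, 2510, 2030 and 2669 CPM in the filtered-air TAC hearts, 3042, 3209 and 3092 CPM in the diesel-exhaust sham hearts and 1937, 2399 and 2116 CPM in the diesel-exhaust TAC hearts. Both were lower in every diesel-exhaust TAC heart than in any diesel-exhaust sham heart, and in Atp5a1 filtered-air TAC 1 lay within the sham range.

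Atp5a1 fell in the average by a log2 change of -0.48 ± 0.13 (adjusted p = 0.024) and Atp5b by -0.41 ± 0.13 (adjusted p = 0.046). Atp5a1 passed in 6 of the 12 fits that left out 1 heart, with an adjusted p of up to 0.0673 without diesel-exhaust TAC 3, and Atp5b in 1 of 12, with up to 0.107 without the same heart. Atp5d, the delta subunit of the central stalk (Entrez 66043, chr10:80138698-80145828, plus strand), read 76.6, 90.3 and 63.7 CPM in the filtered-air sham hearts, 64.3, 56.7 and 56.1 CPM in the filtered-air TAC hearts, 75.8, 82.8 and 74.8 CPM in the diesel-exhaust sham hearts and 50.5, 56.9 and 47.5 CPM in the diesel-exhaust TAC hearts. After diesel exhaust its TAC hearts were all below the sham hearts, and in filtered air the groups overlapped at 1 heart each. Atp5d fell in the average by a log2 change of -0.49 ± 0.12, with an adjusted p of 0.0123 that stayed at or under 0.0458 whichever heart was left out.

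Atp5g3, one of the genes for the c subunit whose ring turns with proton flow (Entrez 228033, chr2:73908447-73912464, minus strand), whose promoter is shown with its estrogen-related receptor element, read 596, 654 and 698 CPM in the filtered-air sham hearts, 543, 458.5 and 555 CPM in the filtered-air TAC hearts, 635, 739.8 and 650.3 CPM in the diesel-exhaust sham hearts and 476, 481 and 460.2 CPM in the diesel-exhaust TAC hearts. No TAC heart reached the sham range in either exposure. Its log2 change in the average was -0.42 ± 0.11 (adjusted p = 0.0231), past the threshold in 7 of the 12 fits that left out 1 heart, and up to 0.0632 without diesel-exhaust TAC 3. Atp5h, the d subunit of the peripheral stalk (Entrez 71679, chr11:115415691-115419919, minus strand), read 265, 280.5 and 340.2 CPM in the filtered-air sham hearts, 205, 256 and 247 CPM in the filtered-air TAC hearts, 255, 432 and 273 CPM in the diesel-exhaust sham hearts and 205.5, 231 and 198 CPM in the diesel-exhaust TAC hearts. Its groups did not overlap in either exposure, and the log2 change in the average was -0.46 ± 0.14 (adjusted p = 0.0392), past the threshold in 3 of the 12 fits, and up to 0.106 without diesel-exhaust sham 2.

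The 8 other genes of complex V did not pass. Atp5c1, the gamma subunit that turns in the head, was lower in every TAC heart within each exposure, with log2 changes of -0.26 ± 0.17 and -0.41 ± 0.17. Atp5o, the stalk protein that confers oligomycin sensitivity, had -0.43 ± 0.28 and -0.41 ± 0.28, with a level split by the 4 libraries and 41.6% of its transcript shared with other genes. Both passed in the average with a term for the 4 libraries. Atp5j, a peripheral stalk subunit, read 184, 229 and 289 CPM in the filtered-air sham hearts, 149.8, 215 and 241 CPM in the filtered-air TAC hearts, 181, 131 and 236 CPM in the diesel-exhaust sham hearts and 150.5, 184 and 167 CPM in the diesel-exhaust TAC hearts, with overlap in both exposures. In the average the log2 change was -0.28 ± 0.20 for Atp5e (epsilon), -0.26 ± 0.15 for Atp5f1 (subunit b), -0.24 ± 0.18 for Atp5l (subunit g) and -0.17 ± 0.15 for Atp5k (subunit e).

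**Figure D4:**
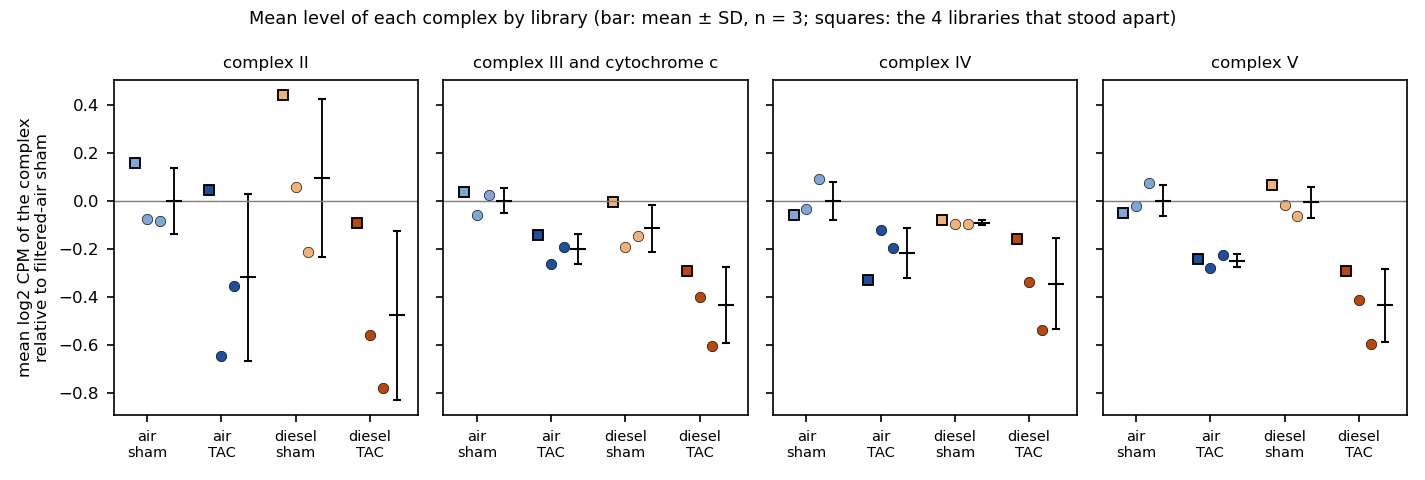
Mean log2 CPM of the tested genes of each complex relative to the filtered-air sham mean (y axis), for each heart by group (x axis), with squares for the 4 libraries that stood apart and bars for the mean ± SD of 3 hearts. In complexes III, IV and V every TAC heart lies below every sham heart of its exposure, and complex II shows the widest spread within groups.

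Diesel exhaust in utero was compared with filtered air within each surgery. In sham hearts 0 of 39 genes passed (0% of all genes), and at an unadjusted p under 0.05 there was 1, Cycs, or 2.56%, beside 3.67% of all genes. DESeq2 called 0 as well. The median log2 difference was -0.03, and 22 of 39 genes lay below 0, against 48.9% of all genes. Cycs, with the library values given earlier, had a log2 difference of -0.52 ± 0.19 (adjusted p = 0.996), and every diesel-exhaust sham heart lay below every filtered-air sham heart. Cox7a1 had the highest difference, 0.37 ± 0.26, with 1 diesel-exhaust heart, sham 2, far above the rest. Without that heart the difference was -0.092.

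In TAC hearts 0 of 39 genes passed (0% of all genes), and at an unadjusted p under 0.05 there were 0, beside 1.87% of all genes. DESeq2 called 0. The median log2 difference was -0.16 over the 39 genes and -0.01 over all genes, and 35 of 39 lay below 0 after diesel exhaust, against 51.6% of all genes, including 13 of 13 in complex V and 9 of 9 in complex III with cytochrome c. Single genes ranged from -0.43 ± 0.40 for Cox6c to 0.19 ± 0.25 for Cox8a, both split by the 4 libraries. The 35 genes share the same 6 hearts, so their common sign is not a count of independent results.

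The test of whether the TAC response differed between exposures, the interaction, gave 0 of 39 genes (0% of all genes). At an unadjusted p under 0.05 there was 1, Atp5k, or 2.56%, beside 2.39% of all genes, and DESeq2 called 0. Atp5k read 45.8, 39.9 and 45.2 CPM in the filtered-air sham hearts, 48.4, 52.0 and 45.6 CPM in the filtered-air TAC hearts, 61.4, 57.4 and 37.9 CPM in the diesel-exhaust sham hearts and 48.5, 34.6 and 27.5 CPM in the diesel-exhaust TAC hearts. Its log2 change was 0.16 ± 0.21 after TAC in filtered air and -0.50 ± 0.21 after diesel exhaust, a difference of -0.66 ± 0.30 with an adjusted p of 1. The median interaction was -0.15, and 28 of 39 genes had the lower value after diesel exhaust, against 51.9% of all genes. For Sdhc and Cox7a1, which passed after diesel exhaust and not in filtered air, the difference between exposures was -0.59 ± 0.33 and -0.46 ± 0.36, each with an adjusted p of 1, so a difference in their response was not shown. Without diesel-exhaust sham 2 the difference for Cox7a1 was 0.002.

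The isoform pairs were compared as count ratios within each heart, which need no scaling between libraries. The ratio of Cox6a2, the heart isoform, to Cox6a1, the widely expressed one, was 7.34, 9.38 and 12.1 in filtered-air sham hearts, 7.96, 8.95 and 6.15 in filtered-air TAC hearts, 10.7, 9.72 and 10.1 in diesel-exhaust sham hearts and 8.89, 6.98 and 4.64 in diesel-exhaust TAC hearts. The TAC hearts had the lower mean in both exposures, with overlap in filtered air only. The log2 ratio differed by -0.47 between TAC and sham, with p = 0.035 in a two-sided exact permutation test within exposures (400 arrangements, smallest possible p 0.005) and an adjusted p of 0.16 over the 8 ratio tests. Cox6a1 itself read 62.2, 57.7 and 51.0 CPM in the filtered-air sham hearts, 52.1, 50.4 and 59.3 CPM in the filtered-air TAC hearts, 45.5, 60.8 and 50.2 CPM in the diesel-exhaust sham hearts and 49.2, 56.4 and 62.4 CPM in the diesel-exhaust TAC hearts, with no order between the groups.

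The ratio of Cox7a1 to the widely expressed Cox7a2 was 24.2, 29.7 and 29.7 in filtered-air sham hearts, 11.8, 14 and 24.7 in filtered-air TAC hearts, 11.7, 51.9 and 36.3 in diesel-exhaust sham hearts and 7.45, 19.7 and 27.5 in diesel-exhaust TAC hearts. The first heart of each group, 1 of the 4 libraries, had the lowest ratio in every group. The log2 ratio differed by -0.80 between TAC and sham (exact permutation p = 0.1, adjusted p = 0.23). Cox7a2 read 16.5, 15.8 and 16.4 CPM in the filtered-air sham hearts, 19.1, 21.3 and 14.2 CPM in the filtered-air TAC hearts, 30.1, 17.52 and 13.7 CPM in the diesel-exhaust sham hearts and 36.2, 15.2 and 9.23 CPM in the diesel-exhaust TAC hearts, and it was the lowest of the complex IV genes per kilobase.

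For Cox8b, the heart and muscle isoform of subunit 8, over Cox8a the ratio was 3.53, 4.61 and 4.42 in filtered-air sham hearts, 3.41, 4.14 and 5.32 in filtered-air TAC hearts, 3.49, 4.15 and 6.81 in diesel-exhaust sham hearts and 2.59, 3.92 and 3.88 in diesel-exhaust TAC hearts. The log2 difference between TAC and sham was -0.21 (exact permutation p = 0.38, adjusted p = 0.608), and the groups overlapped in both exposures. Cox8b read 295, 237 and 269 CPM in the filtered-air sham hearts, 218.5, 241 and 251 CPM in the filtered-air TAC hearts, 268, 235 and 296 CPM in the diesel-exhaust sham hearts and 231, 217 and 189 CPM in the diesel-exhaust TAC hearts. Cox8a read 83.7, 51.5 and 60.9 CPM in the filtered-air sham hearts, 64.1, 58.3 and 47.1 CPM in the filtered-air TAC hearts, 76.9, 56.6 and 43.4 CPM in the diesel-exhaust sham hearts and 89.0, 55.5 and 48.6 CPM in the diesel-exhaust TAC hearts, higher in the first heart of each group.

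The genes Atp5g1 and Atp5g3 encode the same mature c subunit with different import sequences. Their count ratio was 0.489, 0.528 and 0.538 in filtered-air sham hearts, 0.518, 0.717 and 0.624 in filtered-air TAC hearts, 0.58, 0.62 and 0.581 in diesel-exhaust sham hearts and 0.6, 0.742 and 0.651 in diesel-exhaust TAC hearts. The log2 ratio was higher by 0.20 after TAC (exact permutation p = 0.04, adjusted p = 0.16). Atp5g1 read 291.5, 345 and 375.5 CPM in the filtered-air sham hearts, 281, 329 and 347 CPM in the filtered-air TAC hearts, 368.5, 459 and 378 CPM in the diesel-exhaust sham hearts and 286, 357 and 299.7 CPM in the diesel-exhaust TAC hearts, and its log2 change of -0.22 ± 0.12 in the average was smaller than the -0.42 ± 0.11 of Atp5g3. None of the 4 ratios passed the test between exposures: log2 differences ran from -0.08 to 0.15, with exact permutation p from 0.115 to 1 and adjusted p from 0.23 to 1.

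**Figure D5:**
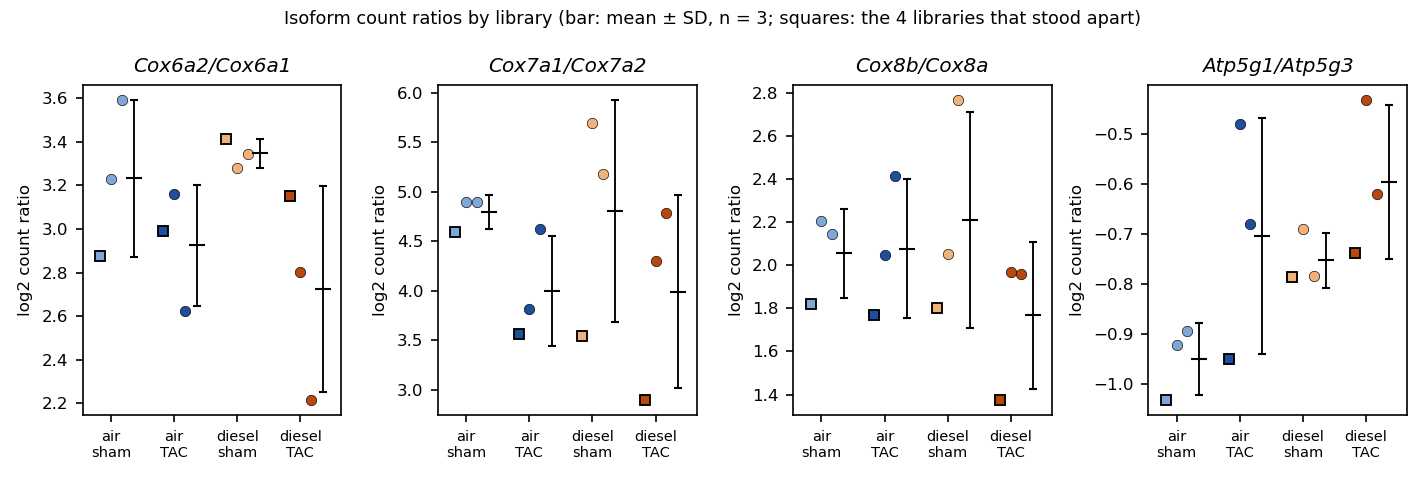
Log2 count ratio of 4 isoform pairs (y axis, a separate range in each panel) for each heart by group (x axis), with squares for the 4 libraries that stood apart and bars for the mean ± SD of 3 hearts. The Cox7a1 to Cox7a2 ratio is lowest in the square of each group.

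Other genes of the chain were described from lists of their own, by their average TAC change. In that comparison 8.03% of all tested genes passed in either direction, 3.93% fell and 49.5% lay below 0. With a term for the 4 libraries, 5.75% of all genes fell. No share of all genes at an unadjusted p under 0.05 is given for this comparison. Counts at that level therefore have no background here. Of the 36 nuclear subunits of complex I, which feeds electrons from NADH into the chain, 3 fell, 35 lay below 0 and the median log2 change was -0.27. With a term for the 4 libraries, 10 fell. The 6 mitochondrially encoded subunits of complexes III to V and the 7 of complex I all lay below 0, with medians of -0.32 and -0.315. In the edgeR fit 0 passed in either list, with 1 and 1 at an unadjusted p under 0.05. The term for the 4 libraries gave 0 that fell in the first list and 1 in the second. Of 38 tested assembly factors of complexes II to V, which build and load the enzymes, 1 rose, the copper-handling factor Cox19 (log2 change 0.64 ± 0.15, adjusted p = 0.00899), and 26 lay below 0, with a median of -0.14. With a term for the 4 libraries, 3 fell and 1 rose. Of 9 tested further subunits, isoforms and regulators of complexes III to V, 0 passed (1 at an unadjusted p under 0.05) and the median was -0.10. In this list 1 fell with the term. The cytosolic ribosomal proteins, short abundant transcripts, had a median of 0.10, and 1 of 42 fell (Rps2). Among them 1 fell and 2 rose with the term.

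Cell markers moved with the same comparison, in which 3.93% of all tested genes fell and 8.03% passed in either direction. Again no share of all genes at an unadjusted p under 0.05 is given. The 15 ventricular cardiomyocyte markers summed to 72000 to 97700 CPM in filtered-air sham, 52800 to 83100 in filtered-air TAC, 77000 to 93000 in diesel-exhaust sham and 54200 to 64200 in diesel-exhaust TAC hearts, and 5 of 15 fell, with a median log2 change of -0.20. The 12 fibroblast markers summed to 1720 to 1890, 2270 to 3450, 1630 to 2200 and 3100 to 3450 CPM in the same order, and 7 of 12 rose, with a median of 0.74. Macrophage and monocyte markers summed to 229 to 319, 341 to 526, 241 to 462 and 435 to 461 CPM, and 3 of 12 rose. Endothelial markers summed to 1100 to 1160, 1190 to 1430, 1040 to 1080 and 1130 to 1380 CPM, with 0 of 10 past the threshold (2 at an unadjusted p under 0.05). In the smooth muscle and pericyte list 1 of 8 rose and 2 fell, in the atrial list 1 of 5 rose (Dkk3), in the red cell list 0 of 5 and in the skeletal muscle list 0 of 4 passed (0 and 1 at an unadjusted p under 0.05), and no adipocyte marker passed the filter, with at most 7.68 CPM for that whole list. In RNA from whole tissue, fewer cells of a type and less RNA per cell cannot be told apart, and the part of these markers in the lower subunit levels was not tested.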

How the data were processed

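RNA from 12 mouse hearts, 3 in each of 4 groups, was depleted of ribosomal RNA and sequenced on an Ion Torrent instrument, per the labels' protocols. The authors deposited whole-number read counts per gene, 1 column per heart; cutadapt 1.6, Subread 1.4.2, featureCounts and the mm10 build are named in the submitters' processing notes, and how reads shared between genes were counted is not given in the sources used here. Replicates are numbered in accession order. Entrez numbers were matched to symbols for 25275 of 27179 genes; the others held 4.21% of counts.

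The counts were analysed with edgeR 4.0.16 in R 4.3.3: TMM factors from all genes, filterByExpr (minimum count 10), a robust quasi-likelihood fit with 1 mean per group (8 residual degrees of freedom), 6 comparisons, and Benjamini-Hochberg adjustment over 13626 genes with a threshold of 0.05. Totals of 5534685 to 13265816 counts limit precision for genes near 0.217 to 0.501 CPM. The SE of a log2 change was derived as its absolute value over the square root of the F statistic of its test. Isoform count ratios were compared by exact permutation tests. Scripts were tested on simulated data. Alternatives were DESeq2 1.42.0, voom in limma 3.58.1, other factors, filters and samples, each heart left out, and, chosen after seeing the data, a term for, or omission of, 4 libraries. Transcript lengths, shared stretches and coordinates came from GENCODE and RefSeq for GRCm38.p6. The genes and lists were chosen with earlier results of these data known. Values by heart are given for genes past the threshold, for the 2 genes per complex with the smallest p for TAC and for exposure, and for the isoform pairs, and for Atp5k, chosen after its values were seen for its interaction p; other genes named serve to account for every subunit. The values of 1 gene of another list are not reported here.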

Additional observations from a re-analysis of the deposited data

How the results depend on the processing

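After diesel exhaust, 2 subunit genes passed, against 9 with DESeq2, 4 with upper-quartile factors, 5 with no low-count filter, 1 without the robust option, 1 when only the 2 groups compared were fitted, 10 with a term for the 4 libraries and 0 to 5 when 1 heart was left out; the cause was not tested. In the average over exposures, 12 passed, against 7 without the robust option and 3 to 10 when 1 heart was left out, where fewer samples enter the fit. Counts of 0 in filtered air, for exposure and for the interaction stayed at 0 under every alternative run.

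Direction changed for the following log2 values, none past the threshold. In filtered air, leaving out 1 heart gave -0.176 to 0.003 for Atp5g1, -0.108 to 0.027 for Uqcrfs1, -0.472 to 0.265 for Uqcr10 and -0.35 to 0.009 for Cox8a, and Cox6a1 was 0.007 without the 4 libraries. After diesel exhaust it gave -0.243 to 0.035 for Cycs, -0.32 to 0.095 for Atp5j, -0.752 to 0.379 for Cox7a2, -0.754 to 0.438 for Uqcr10 and -0.181 to 0.362 for Cox8a, and Cox7a2 was 0.002 with upper-quartile factors and 0.001 with mitochondrially encoded genes left out. In the average it gave -0.44 to 0.261 for Sdhd, -0.195 to 0.107 for Cox7b, -0.422 to 0.182 for Cox6b1, -0.034 to 0.073 for Cox6a1, -0.293 to 0.273 for Cox7a2 and -0.197 to 0.076 for Cox8a, and Cox7a2 was -0.107 without the 4 libraries. For exposure in sham hearts it gave 0 to 0.194 for Sdhb and -0.092 to 0.644 for Cox7a1. For exposure in TAC hearts it gave -0.12 to 0.356 for Cox8a, which was -0.012 without the 4 libraries, and for the interaction -0.734 to 0.002 for Cox7a1. Exposure differences in log2 isoform ratio ranged from -0.14 to 0.086 for Cox6a2 over Cox6a1, -0.199 to 0.29 for Cox7a1 over Cox7a2 and -0.227 to 0.032 for Cox8b over Cox8a. No paired analysis was possible because the labels give no shared replicate numbers. With 3 hearts per group, log2 changes near the SE of a gene could not be told from 0. Some changes well beyond the SE did not pass either. Examples are Cox7a1 in filtered air at -0.63 ± 0.26 (edgeR adjusted p = 0.359) and Cyc1 in the average at -0.38 ± 0.13 (0.0804).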

Other observations

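Among the factors that build complexes II to V, 2 passed a test in opposite directions. Of all genes, 8.03% passed in the average and 3.24% after diesel exhaust. Cox19, which handles copper for complex IV, rose after TAC, with log2 changes of 0.71 ± 0.21 in filtered air and 0.57 ± 0.21 after diesel exhaust (SE; edgeR adjusted p = 0.00899 in the average). Cmc2, another factor for complex IV, had log2 changes of 0.00 ± 0.23 in filtered air and -0.85 ± 0.23 after diesel exhaust (adjusted p = 0.998 and 0.0472). Among the complex I subunits that fell in the average were Ndufs7 (log2 change -0.49 ± 0.13, adjusted p = 0.0185) and Ndufa13 (-0.53 ± 0.16, adjusted p = 0.0437).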
